A study of Mus musculus with 16 samples.

Results

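The 10 genes described here encode nuclear receptors that bind retinoic acid or share its DNA elements. They are the retinoic acid receptors Rara, Rarb and Rarg, the retinoid X receptors Rxra, Rxrb and Rxrg, the COUP transcription factor genes Nr2f1, Nr2f2 and Nr2f6, and the orphan receptor gene Nr6a1. They were taken by symbol from a table of 24452 genes, and all 10 were found. The table comes from RNA-seq of mouse embryonic stem cells that were moved from serum medium with the self-renewal factor LIF to medium with 1 uM all-trans retinoic acid and no LIF. The lines were wild-type E14 (WT) and a line labelled Suz12-KO with the genotype Suz12-/-, both sampled before the change of medium (0 h) and at 24, 48 and 72 h. The labels give 16 samples in 8 groups of 2, but the table holds 1 column of RPKM (reads scaled for gene length and for the reads of the library) for each group. No spread between cultures could therefore be computed. How the mutation was made, and whether the line is 1 clone, are not given in the sources used here.

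Retinoic acid enters the nucleus and binds retinoic acid receptors (RARs), which sit on DNA as pairs with retinoid X receptors (RXRs). Without ligand the pair holds corepressors at a target gene, and with ligand it exchanges them for coactivators. COUP transcription factors and Nr6a1 (germ cell nuclear factor) are orphan receptors that recognise the same kind of half-site and mostly act as repressors. In embryonic stem cells Rarb is a classical direct target of retinoic acid, and Nr6a1 is known for repressing the pluripotency genes Pou5f1 and Nanog as the cells differentiate.

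The columns rest on 24731176 to 32153765 reads, of which 3303 to 7186 fell on the 10 genes. Levels are RPKM as deposited, and brackets hold exact Poisson 95% intervals of the reads, which cover counting error only. Log2 changes and folds were computed after dividing each column by a median-of-ratios factor, because the median gene shifted with the column; on the log2 scale the factor was lowest, -0.53, for WT before treatment and highest, 0.26, for the 48 h column of Suz12-KO. Suz12 itself, the gene named in the genotype, read 2.94 RPKM in WT and 2.59 RPKM in the Suz12-KO column at 0 h. At 72 h it read 0.995 and 1.35 RPKM. Averaged over the times it differed by 0.10 on the log2 scale (limma adjusted p = 0.753). Its RNA does not show a loss, and "Suz12-KO" below means the columns labelled so. All 10 embryonic stem cell markers of the list were read in every column, and their summed level went from 464 to 11.6 RPKM in WT and from 622 to 19.9 RPKM in Suz12-KO.

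Of the 10 genes, 9 reached 1 RPKM in a column and entered the tests; Rxrg did not. A gene that is silent at 0 h could enter only through a later column, so Rarb, Nr2f1 and Nr2f2 are in the tests because they were high later. Changes over time were tested with limma as the mean over both lines, across 10860 genes with Benjamini-Hochberg adjustment at 0.05; with 1 column per group the test measures how evenly a change held in the lines, not the spread between cultures. At 24 h Rarb and Nr6a1 passed as higher and Rarg as lower, 3 of 9 genes where 11.7% of all tested genes passed as higher and 12.1% as lower (23.8% in all). At 48 h 6 passed as higher (Rarb, Rxra, Nr2f1, Nr2f2, Nr2f6 and Nr6a1) and Rarg as lower, where 24.0% and 23.0% of all tested genes did (47.0% in all). At 72 h 5 passed as higher and Rarg as lower, where 29.7% and 28.9% of all did (58.6% in all), so 6 of 9 is close to the share of all genes.

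**Figure D1:**
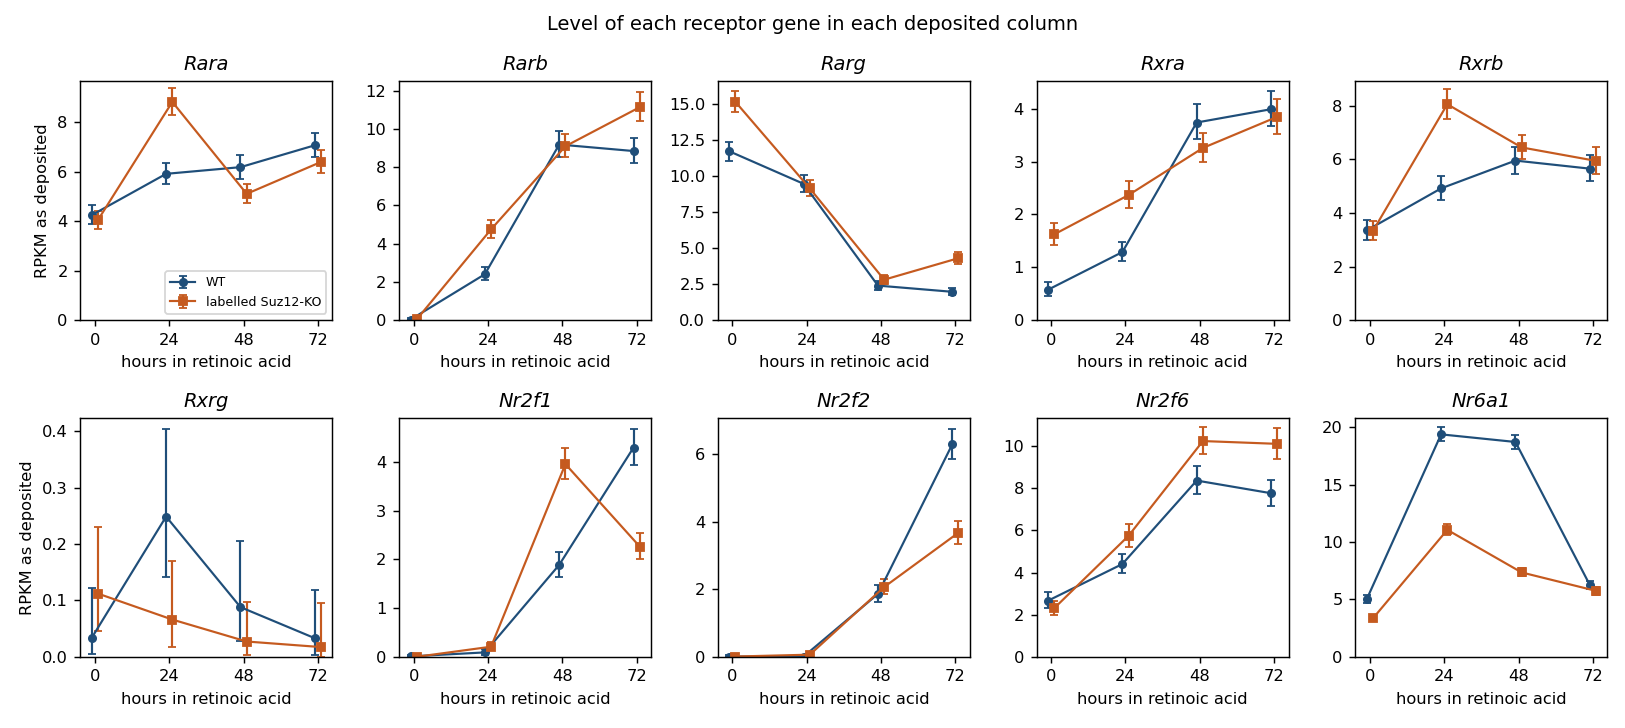
Level of each receptor gene in RPKM as deposited (vertical axis, linear, from 0) against hours in retinoic acid, for WT (blue circles) and the line labelled Suz12-KO (orange squares); bars are 95% Poisson intervals of the reads. Rarb, Nr2f1 and Nr2f2 start near 0 and climb, Rarg falls from 11.7 and 15.1 RPKM, and Nr6a1 stands highest at 24 h in both lines.

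Rarb (ENSMUSG00000017491, chromosome 14, 16430839 to 16819156, minus strand, GRCm38) went from almost no reads to the most abundant RAR gene. In WT it read 0.0255 RPKM (0.00309 to 0.0922, 2 reads) at 0 h, 2.40 at 24 h, 9.18 at 48 h and 8.84 RPKM at 72 h. In Suz12-KO it read 0.0363 RPKM (3 reads), 4.75, 9.09 and 11.1 RPKM at the same times. Every later column lay far above both 0 h columns. The log2 change averaged over the lines was 2.76 (SE 0.19, limma adjusted p = 0.00251) at 24 h, 4.00 (adjusted p = 0.000193) at 48 h and 4.15 (adjusted p = 8.5e-05) at 72 h, with both lines rising each time. These log2 values carry an added 0.5 RPKM and so understate the rise of a gene near 0. The plain ratio of scaled levels at 72 h over 0 h was 225 in WT (counting interval 61.9 to 1858), resting on 2 reads at 0 h, and 229 in Suz12-KO (77.9 to 1110), resting on 3 reads.

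The promoter of Rarb is shown because it holds the retinoic acid response element for which the gene is known. The RefSeq window (GRCm38.p6, minus strand, chr14:16575427-16575726) spans 250 bases before to 50 after a start of the gene. The half-site word AGGTCA was searched on both strands, together with its variant AGTTCA, its variant GGGTCA and its variant GGTTCA, and 2 such words as a direct repeat with 5 bases between (DR5) are in capitals.
Rarb promoter: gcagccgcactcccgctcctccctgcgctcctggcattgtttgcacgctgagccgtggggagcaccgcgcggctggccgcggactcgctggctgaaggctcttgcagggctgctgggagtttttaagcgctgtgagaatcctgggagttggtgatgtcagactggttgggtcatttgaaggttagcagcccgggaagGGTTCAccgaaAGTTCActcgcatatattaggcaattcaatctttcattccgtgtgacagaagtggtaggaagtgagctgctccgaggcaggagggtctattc

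The repeat lies from 53 to 37 bases before the start. Such a DR5 was found in 32 of 32851 RefSeq promoter windows (0.0974%), and among the windows of the 10 receptor genes only in that of Rarb. Repeats with 2 bases between (0.268% of windows) or 1 base between (0.222%) were found in none of the 19 windows of the receptor genes. Single half-sites were found in 10 of the 19, where 43.7% of all windows held one. Of the 31 genes with the DR5, 12 were in the table and 4 were among the tested genes. The rest of the 12 did not reach 1 RPKM in any column. Rarb and Cyp26a1 were near 0 at 0 h and were tested only because they were high later. These 4 therefore cannot show how genes with the repeat behave as a set. The sites of the 4 are set side by side, with the half-sites in capitals. All carry the repeat, and the genes did not move alike. Each site is written on the strand that reads as the repeat. For Rarb and Gm4631 this is the strand of the gene, for Cyp26a1 and Blvrb the opposite strand.
Rarb: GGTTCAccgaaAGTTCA
Cyp26a1: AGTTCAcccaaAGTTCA
Blvrb: AGTTCAaagccAGTTCA
Gm4631: AGTTCAaaaggAGGTCA

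Cyp26a1, which encodes the enzyme that degrades retinoic acid, rose with Rarb. It read 0.0218, 65.0, 50.4 and 28.7 RPKM over the 4 times in WT and 0.0622, 64.6, 83.9 and 82.6 RPKM in Suz12-KO. Its averaged log2 change at 24 h was 6.78 (limma adjusted p = 0.00239). Blvrb, a biliverdin reductase gene, changed by 0.38 at 24 h (adjusted p = 0.336) and -0.36 at 72 h (adjusted p = 0.276). Gm4631, a predicted gene, fell by 1.61 at 72 h (adjusted p = 0.00041). A match of letters describes the window and does not show binding.

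Rarg (ENSMUSG00000001288, chromosome 15, 102234938 to 102257517) encodes the RAR that was most abundant before treatment, and it fell. In WT it read 11.7 RPKM (11.1 to 12.4), then 9.45, 2.39 and 1.96 RPKM (1.71 to 2.24). In Suz12-KO it read 15.1, 9.13, 2.80 and 4.29 RPKM (3.91 to 4.71). The 48 and 72 h columns of both lines lay below every earlier column. The averaged log2 change was -2.68 (SE 0.27, limma adjusted p = 0.00115) at 48 h and -2.50 (adjusted p = 0.000805) at 72 h. At 24 h it was -0.98 (adjusted p = 0.0489), a call that was lost with RPKM as deposited (-0.50, adjusted p = 0.133) and under 5 other alternatives, with adjusted p from 0.0197 to 0.133 over all alternatives. From 48 to 72 h the lines parted in value. The scaled level went to 0.809 of its 48 h value in WT (counting interval 0.670 to 0.976) and to 1.64 times that value in Suz12-KO (1.43 to 1.89); the difference was not tested.

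Rara (ENSMUSG00000037992, chromosome 11, 98927818 to 98974942) encodes the broadly expressed RAR and varied least of the 3. It read 4.25, 5.92, 6.19 and 7.07 RPKM in WT and 4.05, 8.83, 5.11 and 6.40 RPKM in Suz12-KO. The 24 h column of Suz12-KO was the highest. After scaling, the averaged log2 change was 0.28 (limma adjusted p = 0.293, higher in 1 of 2 lines) at 24 h, -0.11 (0.626) at 48 h and 0.16 (0.467) at 72 h. On RPKM as deposited the same values were 0.74 (adjusted p = 0.0303), 0.40 (0.141) and 0.64 (0.0340), so whether Rara counts as higher depends on the scale.

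Per length, the RAR genes changed places. Rarg made up 73.2% of the summed RAR RPKM in WT at 0 h and 78.7% in Suz12-KO, and 11.0% and 19.7% at 72 h. Rarb made up 0.160% and 0.189% at 0 h and 49.5% and 51.0% at 72 h, while Rara went from 26.6% to 39.6% in WT and from 21.1% to 29.3% in Suz12-KO. The summed scaled level of the 3 genes was 23.1 RPKM in both lines at 0 h and 16.7 and 19.5 RPKM at 72 h. On RPKM as deposited the sum went the other way, from 16.0 to 17.9 RPKM in WT and from 19.2 to 21.8 RPKM in Suz12-KO. Whether the sum counts as lower therefore depends on the scale. In these bulk samples fewer cells that express a gene and less RNA per cell cannot be told apart.

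**Figure D2:**
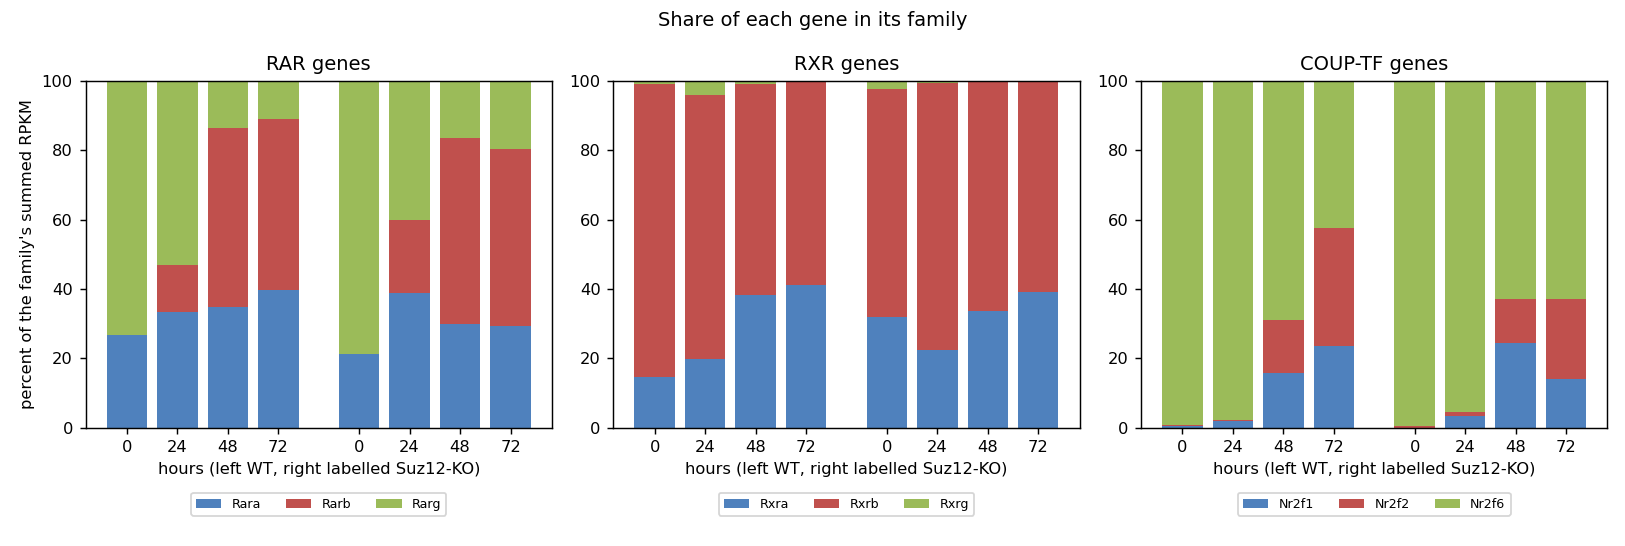
Percent of the summed RPKM of the RAR, RXR and COUP-TF genes (vertical axis, 0 to 100) that each gene takes in each column, with the WT times on the left and those labelled Suz12-KO on the right of each panel. Rarg takes 73.2% of the RAR sum in WT at 0 h and 11.0% at 72 h, and Nr2f6 goes from 99.4% to 42.3% of the COUP-TF sum in WT.

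Rxra (ENSMUSG00000015846, chromosome 2, 27676440 to 27762957) and Rxrb (ENSMUSG00000039656, chromosome 17, 34031812 to 34038399) encode the RXRs present in these cells. Rxra read 0.574 (0.456 to 0.714), 1.29, 3.74 and 3.99 RPKM in WT, and 1.62 (1.42 to 1.84), 2.37, 3.26 and 3.85 RPKM in Suz12-KO. The Suz12-KO column was the higher at 0 and 24 h, and on RPKM as deposited the intervals of the lines overlapped at 48 and 72 h. After scaling, the Suz12-KO level was 0.767 of that in WT at 48 h (counting interval 0.679 to 0.866) and 0.922 at 72 h (0.818 to 1.039). Averaged over the lines Rxra rose by 1.00 on the log2 scale at 48 h (SE 0.29, limma adjusted p = 0.0320) and by 1.18 at 72 h (adjusted p = 0.0143). The 48 h call was lost without the 24 h columns (adjusted p = 0.0543), without the 72 h columns (0.0507) and with no filter on low genes (0.0842). The change from 0 to 72 h was 1.67 in WT and 0.69 in Suz12-KO, and the authors' deposited table marks Rxra as different between these times in WT but not in Suz12-KO. The difference of these 72 h changes was -0.98 and has no test. The change from 0 to 48 h was 1.61 in WT and 0.40 in Suz12-KO, and their difference of -1.21 has no test either.

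Rxrb read 3.35, 4.92, 5.96 and 5.66 RPKM in WT and 3.33, 8.06, 6.45 and 5.95 RPKM in Suz12-KO. As for Rara, the 24 h Suz12-KO column was the highest, at 8.06 RPKM (7.51 to 8.65). After scaling no averaged change passed, with values of 0.38, 0.30 and 0.25 and limma adjusted p from 0.142 to 0.233. On RPKM as deposited they were 0.83, 0.80 and 0.71 and all 3 passed (adjusted p from 0.0114 to 0.0163). Rxrb held 84.6% of the summed RXR RPKM in WT at 0 h and 58.4% at 72 h, and 65.8% and 60.6% in Suz12-KO.

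Rxrg (ENSMUSG00000015843, chromosome 1, 167598384 to 167639623), the RXR gene known from muscle and brain, was barely read. It had 39 reads over all 8 columns, and its highest level was 0.249 RPKM (0.142 to 0.404, 16 reads) in WT at 24 h. The other columns held 1 to 7 reads. Neither line carries the authors' mark for it.

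Nr2f1 (ENSMUSG00000069171, chromosome 13, 78188973 to 78199757) and Nr2f2 (ENSMUSG00000030551, chromosome 7, 70351944 to 70366735) encode COUP-TFI and COUP-TFII, repressors known from neural, mesodermal and vascular development, and both rose after the first day. Nr2f1 read 0.00815 (1 read), 0.0901 (12 reads), 1.89 and 4.30 RPKM in WT. In Suz12-KO it had no read at 0 h, which allows up to 0.0232 RPKM (3 reads), then 0.207 (26 reads), 3.96 and 2.26 RPKM. The lines crossed, with Suz12-KO the higher at 48 h and WT the higher at 72 h, and in both cases the intervals were separate. The averaged log2 change was 0.32 (limma adjusted p = 0.543) at 24 h, 2.55 (SE 0.35, adjusted p = 0.00271) at 48 h and 2.74 (adjusted p = 0.00136) at 72 h. With the 0 reads of Suz12-KO counted as 3, its scaled Nr2f1 level was at least 119-fold higher at 48 h and at least 72.8-fold higher at 72 h; the counting intervals of these folds, which also take in the error of the later reads, begin lower, at 96.3 and 58.8.

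Nr2f2 read 0.00796, 0.00734, 1.86 and 6.29 RPKM in WT, with 1 read at each of the first 2 times. In Suz12-KO it read 0.00756 (1 read), 0.0623 (8 reads), 2.07 and 3.68 RPKM. No column before 48 h passed 0.0623 RPKM and none from 48 h on was under 1.86 RPKM. The averaged log2 change was 0.05 (limma adjusted p = 0.897) at 24 h, 2.14 (SE 0.24, adjusted p = 0.00145) at 48 h and 3.27 (adjusted p = 0.000247) at 72 h. From 48 to 72 h the scaled level grew 3.33-fold in WT (counting interval 2.87 to 3.88) and 1.91-fold in Suz12-KO (1.65 to 2.21). Nr2f1 moved otherwise over this interval, to 2.25 times its 48 h level in WT (1.92 to 2.64) and to 0.613 of it in Suz12-KO (0.529 to 0.708).

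Nr2f6 (ENSMUSG00000002393, chromosome 8, 71374123 to 71381960), the third and broadly expressed COUP family gene, was already on at 0 h and rose. It read 2.66, 4.40, 8.36 and 7.76 RPKM in WT and 2.30, 5.74, 10.2 and 10.1 RPKM in Suz12-KO. All 4 columns from 48 h on lay above all earlier ones. The averaged log2 change was 0.46 (limma adjusted p = 0.112) at 24 h, 1.22 (SE 0.18, adjusted p = 0.00325) at 48 h and 1.19 (adjusted p = 0.00226) at 72 h. At 24 h the deposited scale gave 0.89 (adjusted p = 0.00979). The authors' table marks Nr2f6 in Suz12-KO and not in WT. The change from 0 to 72 h was 1.55 in Suz12-KO and 0.84 in WT, and their difference of 0.71 has no test. The summed scaled level of the 3 COUP genes went from 3.87 to 17.2 RPKM in WT and from 2.78 to 14.4 RPKM in Suz12-KO.

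Nr6a1 (ENSMUSG00000063972, chromosome 2, 38723370 to 38927688) rose at 24 and 48 h. At 72 h the scaled levels of the lines stood on opposite sides of their starting levels. On RPKM as deposited both lines stood above them, by 0.29 on the log2 scale in WT and 0.70 in Suz12-KO. In WT it read 5.02 RPKM (4.71 to 5.34), 19.4, 18.7 and 6.26 RPKM (5.92 to 6.62). In Suz12-KO it read 3.35 (3.10 to 3.61), 11.1, 7.35 and 5.74 RPKM (5.41 to 6.10). At 24 h it was the most abundant of the 10 genes in both lines, and in WT also at 48 h. The averaged log2 change was 1.26 (SE 0.29, limma adjusted p = 0.0277) at 24 h, 0.90 (adjusted p = 0.0443) at 48 h and 0.02 (adjusted p = 0.961) at 72 h. That last average joins a scaled level at 0.809 of the 0 h level in WT (counting interval 0.743 to 0.881) and at 1.28 times it in Suz12-KO (1.16 to 1.41). The 24 h call was lost with no filter on low genes (adjusted p = 0.0789), and the 48 h call with no filter (0.104), without a variance trend (0.0527) or without the 24 h columns (0.0720). The scaled level of Nr6a1 at 72 h was 0.330 of its 48 h level in WT (counting interval 0.309 to 0.352) and 0.837 of it in Suz12-KO (0.776 to 0.904). The authors' table marks it in neither line, and that comparison of 72 with 0 h does not include the times of the peak.

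Pou5f1 and Nanog, which Nr6a1 is known to repress, fell at 24, 48 and 72 h (limma). Pou5f1 read 104, 55.9, 3.64 and 0.319 RPKM in WT and 137, 63.5, 7.27 and 1.35 RPKM in Suz12-KO. Nanog read 62.1, 26.6, 2.71 and 0.894 RPKM in WT and 77.0, 25.7, 3.69 and 1.15 RPKM in Suz12-KO. Averaged over the times, the log2 difference of Suz12-KO minus WT was 0.46 for Pou5f1 (limma adjusted p = 0.238) and 0.03 for Nanog (adjusted p = 0.897). In WT Nr6a1 was at 19.4 and 18.7 RPKM at either end of the day in which Pou5f1 went from 55.9 to 3.64 RPKM. In Suz12-KO Nr6a1 was lower at these times, at 11.1 and 7.35 RPKM, and Pou5f1 went from 63.5 to 7.27 RPKM. A link between the 2 genes was not tested. Nr6a1 protein binds half-sites that follow each other directly, and the Pou5f1 promoter is known for such an element. The stretch shown (GRCm38.p6, plus strand, chr17:35505987-35506016) has the word AGGTCA in capitals, from 33 to 28 bases before the start. That word alone is in 16.3% of all promoter windows.
Pou5f1 promoter: gggcggggccagAGGTCAaggctagagggt

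**Figure D3:**
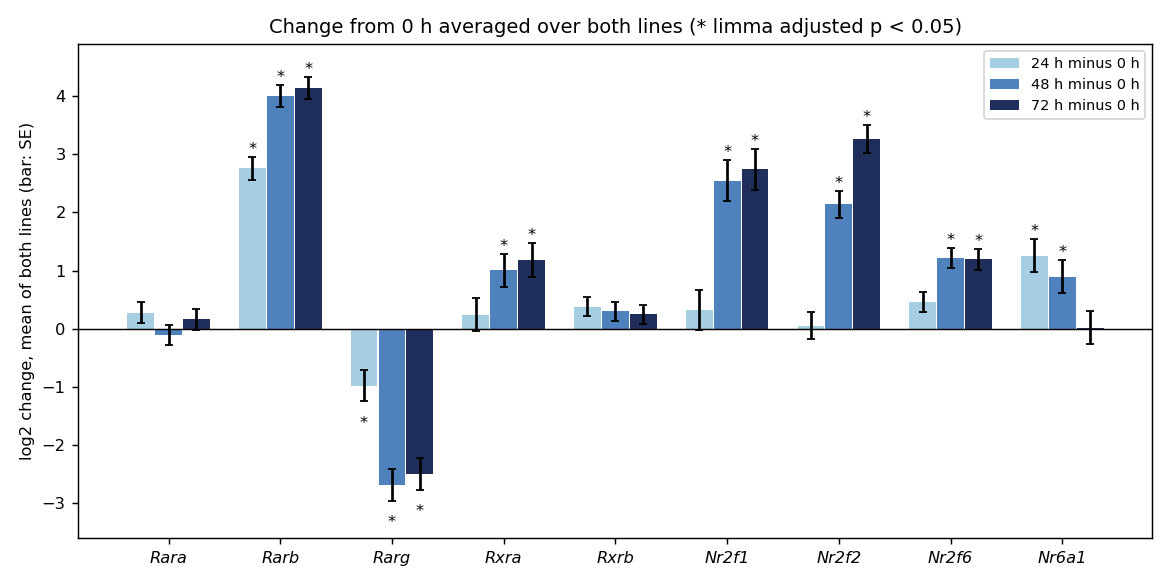
Log2 change from 0 h averaged over both lines (vertical axis, scaled RPKM with 0.5 added) for the 9 tested genes at 24, 48 and 72 h; error bars are limma SE, and stars mark an adjusted p under 0.05. Rarb stands at 4.15 at 72 h, Rarg at -2.50, and Nr6a1 at 1.26 at 24 h and 0.02 at 72 h.

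The order of the levels turned over. At 0 h Rarg was highest in both lines and Nr2f1, Nr2f2, Rarb and Rxrg were all under 0.2 RPKM, with intervals that overlapped their neighbours in the order. At 72 h Rarb and Nr2f6 ranked highest in both lines. In WT no gap set them apart, since from Rarb (8.84 RPKM) over Nr2f6 (7.76 RPKM), Rara, Nr2f2 and Nr6a1 to Rxrb (5.66 RPKM) each interval overlapped the next. In Suz12-KO they overlapped each other, at 11.1 and 10.1 RPKM, and lay above the rest, and Rara, Rxrb and Nr6a1 overlapped in the same way, from 6.40 to 5.74 RPKM. Nr2f1 ranked above Rxra in WT with overlapping intervals, and below Rxra in Suz12-KO.

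The comparison of the lines asks how the receptor genes behave where Suz12, a subunit of the Polycomb complex that methylates histone H3 at lysine 27, is labelled as lost. Averaged over the 4 times none of the 9 genes passed (limma, background 5.59%), and 1 of them, Nr6a1, had an unadjusted p under 0.05. Nr6a1 was lower in Suz12-KO at 4 of 4 times, by an average of -0.87 (SE 0.20, limma adjusted p = 0.0655, from 0.0603 to 0.224 over the alternatives). Its scaled level in Suz12-KO was 0.555 of that in WT at 0 h (counting interval 0.502 to 0.612), 0.464 at 24 h (0.440 to 0.489), 0.346 at 48 h (0.326 to 0.366) and 0.877 at 72 h (0.808 to 0.952). The averages of the other 8 genes lay between -0.17 (Nr2f2 and Rara) and 0.22 (Rxra), with adjusted p from 0.464 to 0.986.

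At single times Nr6a1 at 24 h (-1.07, background 4.12%) and at 48 h (-1.46, background 4.68%) was the only tested receptor gene at least 2-fold apart between the lines. At 24 h it was under 2-fold on RPKM as deposited (-0.78). At 0 and 72 h none was, with backgrounds of 5.32% and 5.47%. Nearest to it were Rarg at 72 h (0.89), Rxra at 0 h (0.88), Nr2f1 at 72 h (-0.84) and Nr2f2 at 72 h (-0.75). Because 0.5 RPKM is added, the plain ratios are larger, with Rarg at 2.09 times the WT level at 72 h (counting interval 1.77 to 2.48) and Rxra at 2.35 times at 0 h (1.82 to 3.06). Nr2f1 at 72 h was at 0.504 of the WT level (0.434 to 0.584). The Suz12-KO columns also read more of the endoderm markers, 11 genes whose summed level was 3.18 to 23.8 RPKM over the WT columns and 14.2 to 154 RPKM over the Suz12-KO columns. Of 9 tested, Col4a1, Lama1 and Sox7 passed between the lines (limma), while Foxa2 (-0.14) and Ttr (-0.33) had averages below 0. The sum at 72 h was mostly Col4a1 and Lama1, at 8.78 and 4.67 RPKM in WT and 71.7 and 55.9 RPKM in Suz12-KO. Gata6, Sox17, Afp and Ttr were at 0 in WT at 0 h, and Afp and Ttr in Suz12-KO. The mesoderm and fibroblast markers, 10 genes, summed to 0.763, 1.45, 4.47 and 19.1 RPKM over the times in WT and to 1.08, 3.25, 13.8 and 19.9 RPKM in Suz12-KO. The 6 trophoblast markers summed to 1.75 to 5.92 RPKM over the WT columns and 1.04 to 4.33 RPKM over the Suz12-KO columns, and the 8 neural markers to 7.30 to 11.9 and 7.75 to 13.2 RPKM. The neural sums join unlike genes. Olig2 was at 0 in every WT column and at 4.19 RPKM in Suz12-KO at 0 h. Tubb3, at 11.1 and 8.19 RPKM at 0 h in WT and Suz12-KO, fell by 2.19 at 72 h where Nes rose by 2.75. Of 5 tested neural markers none passed between the lines (limma). The part of the cell type markers in the differences of the receptor genes was not tested.

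**Figure D4:**
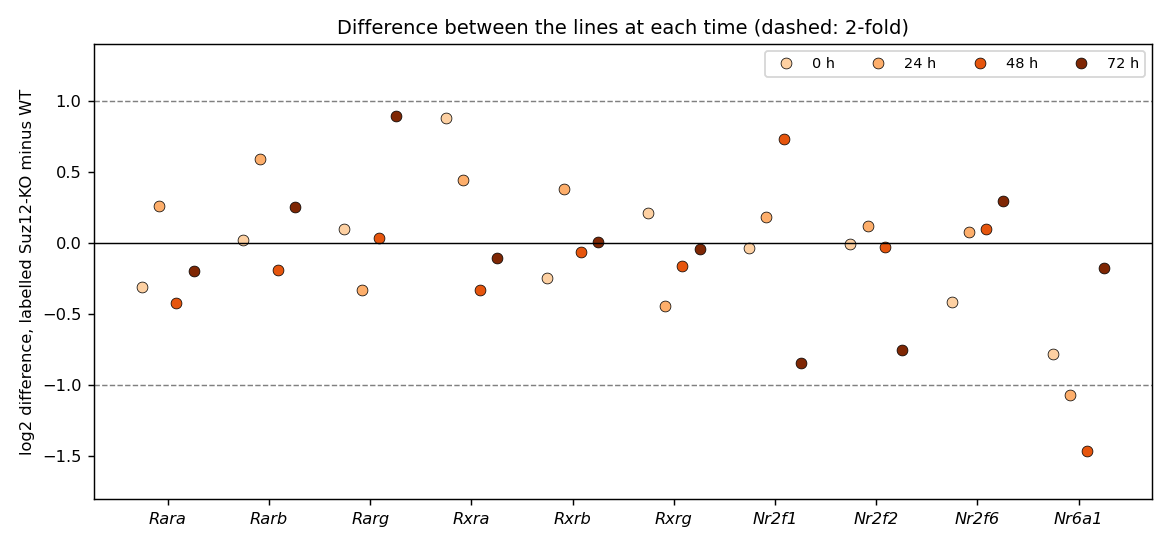
Log2 difference of scaled RPKM with 0.5 added, Suz12-KO minus WT (vertical axis), for the 10 genes at 0, 24, 48 and 72 h (light to dark). Dashed lines mark 2-fold, and Nr6a1 at 24 h (-1.07) and 48 h (-1.46) lies beyond it.

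Counted line by line, 2 tested genes were at least 2-fold apart from 0 h in WT at 24 h (background 8.3%), 6 at 48 h (20.8%) and 5 at 72 h (27.4%). In Suz12-KO the counts were 3 (11.6%), 5 (20.9%) and 5 (30.5%). The authors' table marks 5 of the 10 genes in each line for 72 against 0 h, where 18.0% of all genes in WT and 19.9% in Suz12-KO are marked. These 2 shares are over all 24452 genes, most of which did not reach 1 RPKM, and not over the 10860 tested genes. The share of tested genes that are marked was not computed, so these shares are no like background for the receptor genes. Rarb, Nr2f1, Nr2f2 and Rarg are marked in both, Rxra in WT alone and Nr2f6 in Suz12-KO alone. For no tested gene did the 72 h changes of the lines differ by 1 log2 unit or more, as 8.42% of all tested genes did. At 72 h Rxra came nearest at -0.98, followed by Nr2f1 (-0.81), Rarg (0.79), Nr2f2 (-0.75) and Nr2f6 (0.71). At 48 h the changes of Rxra differed by -1.21, beyond this limit. The share of all tested genes beyond it at 48 h was not computed.

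The partners of these receptors moved in several directions. Of 14 coregulator genes 13 were tested, and at 72 h 3 passed as higher and 5 as lower, with a median of -0.0045 against 0.01 over all genes. These 8 of 13 stand beside 58.6% of all tested genes, a similar share. The coactivator gene Ncoa3 fell by 1.60 on the log2 scale (limma adjusted p = 0.000165), the corepressor gene Ncor1 fell by 1.02 (adjusted p = 0.00259), and Nrip1, a ligand-dependent corepressor, rose by 0.94 (adjusted p = 0.0285). Ep300, a histone acetyltransferase gene, was the one coregulator that passed between the lines, at -0.50 in Suz12-KO (adjusted p = 0.0431). Of 13 other receptors that pair with RXRs, 12 were in the table and 3 were tested. Nr4a1 fell by 1.91 (adjusted p = 0.000192), Nr1h2 fell by 0.69 (adjusted p = 0.00244) and Thra rose by 0.81 (adjusted p = 0.00530).

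Among the other orphan receptor genes 7 of 19 were tested, and at 72 h 4 passed as lower and 1 as higher, with a median of -1.33 against 0.01 over all genes, of which 28.9% passed as lower and 29.7% as higher. Esrrb, Nr0b1 and Nr5a2, receptors of the pluripotency network, fell by 6.12, 5.47 and 2.65. Of 16 genes of retinoid metabolism and binding 13 were tested and all 13 passed as higher at 72 h, with a median of 3.29, where 29.7% of all tested genes did, and 5 of them passed as higher at 24 h, where 11.7% of all did. Dhrs3, which encodes a retinaldehyde reductase, rose by 4.76 (adjusted p = 0.000165), Crabp2, a retinoic acid binding protein gene, by 4.06 (adjusted p = 0.00135) and Aldh1a2, which encodes an enzyme that makes retinoic acid, by 3.64 (adjusted p = 0.000303). Of 20 retinoic acid targets, some of them also in the list before, 19 were tested, and 16 passed as higher at 24, 48 and 72 h each, with medians of 2.24, 3.11 and 2.87, where 11.7%, 24.0% and 29.7% of all tested genes did. At 72 h Gbx2 passed as lower. A gene of these lists that is silent at 0 h could be tested only where it was high later. No tested gene of either list passed between the lines (limma).

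Genes whose levels followed those of a receptor gene most closely over the 8 columns were looked up among 4862 genes that reached 5 RPKM, as a description. Nr2f2 was followed by Igfbp5, a growth factor binding protein gene, with a Pearson r of 0.9995, which went from 0.00645 RPKM at 0 h to 8.35 RPKM at 72 h in WT, then by Fam107b and 9530068E07Rik (r = 0.9892 and 0.989). Rarb was followed by Tbc1d9b, Msl1 and Yaf2 (r from 0.9925 to 0.9959) and Nr2f1 by Khdrbs3, Tceal9 and Irs1 (r from 0.9759 to 0.9799). Nr6a1 had no such close match, with Eef1a1 at 0.94, Gm25129 at 0.93 and Ctr9 at 0.92. All 8 points of such a correlation share the same columns and scaling.

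Some of these genes overlap others in the annotation. The exons of Rarb share 1793 bases with Top2b on the opposite strand, and those of Nr2f6 share 1622 bases with Ocel1. These are exons of GENCODE M21. The lengths behind the RPKM were shorter for Rarb (3034 against 5265 bases), Top2b (6355 against 14613) and Nr2f2 (4863 against 8625). Whether their shared bases were counted is therefore not known. For Nr2f6 and Ocel1 the lengths were the same. Whether the counting used strand is not stated. Top2b, a topoisomerase gene, had 82 reads in WT at 0 h where Rarb had 2, and 238 in Suz12-KO where Rarb had 3. At 24 h Top2b had 314 reads against 204 of Rarb in WT, and 638 against 380 in Suz12-KO. It had fewer than Rarb in both lines at 48 and 72 h. Top2b also moved upward, by 0.85 at 24 h (limma adjusted p = 0.0516), 0.80 at 48 h (0.0385) and 0.74 at 72 h (0.0399). Ocel1 had at most 0.304 RPKM in any column. Nr2f1 shares 123 bases with the antisense RNA gene A830082K12Rik, which had at most 0.114 RPKM, and Nr2f2 shares 643 bases with B130024G19Rik, not analysed here. Nr6a1os, a non-coding gene inside Nr6a1 on the opposite strand, rose by 1.86 at 72 h (limma adjusted p = 0.00272). It rests on few reads, 0 in WT and 1 in Suz12-KO at 0 h, and 34 and 30 at 72 h. Only its later columns brought it into the tests. The averaged change of Nr6a1 at 72 h, 0.02, joins -0.28 in WT and 0.32 in Suz12-KO. A link between the 2 genes was not tested.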

How the data were processed

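RNA depleted of ribosomal RNA was sequenced, per the labels' protocols. Per the submitters' processing notes TopHat, featureCounts and DESeq2 were used with GRCm38 (mm10), without versions. The authors deposited RPKM, 1 column per group of 2 samples, and TRUE or FALSE marks (another kind of value, given per the file headers) for 72 against 0 h in each line, without direction. How samples were pooled and how marks were set are not given. Per the file headers gene IDs are from Ensembl release 72; symbols and positions came from GENCODE M21.

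Column totals and gene lengths that turn RPKM into whole reads were recovered from the steps between values. All 80 values of the 10 genes came out whole within 0.01 reads. For Rarb, Rarg, Rxrb, Nr2f1, Nr2f2 and Nr6a1 the length was itself chosen to make the values whole, so this is no check for them. The other members came out whole at the annotated exon length. Of the low values of genes with 1 transcript, 80.95% to 81.61% per column were whole at the annotated length. Reads were used for intervals and limits (3 reads) only. Kept genes reached 1 RPKM in a column (10860). A limma model (version 3.58.1, R 4.3.3, empirical Bayes with a variance trend) with line and time as terms was fitted to log2(scaled RPKM + 0.5) on 3 residual degrees of freedom. It was also run on simulated reads with counting error only. Those reads held no spread between cultures and no change over time that differed between the lines, so the run could not test how the model handles these. Folds on the log2 scale with 0.5 added understate low genes. Alternatives were other scalings, pseudocounts of 0.1 and 1, other filters, no variance trend and leaving out a time. Sequences are from RefSeq (GRCm38.p6), and all 10 genes had a promoter window. Named genes were all 10 members, the genes of each list that passed with the largest changes, and the 3 closest matches of 4 members; Blvrb, Gm4631, Gbx2 and the overlapping genes were named after their values were seen. The 10 genes and all lists were chosen with earlier results of these data known.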

Additional observations from a re-analysis of the deposited data

How the results depend on the processing

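No paired analysis was possible because the columns carry no replicate numbers. Of the fitted values of the 9 tested genes, 311 kept direction and side of the threshold, 13 lost a call, 6 gained one and 12 reversed; the cause was not tested. Genes that passed between the lines numbered 607, 1308 on RPKM as deposited, 132 with no filter, and 65 to 548 when 1 time was left out. At 24 h 2583 passed, 4420 as deposited, 1638 with no filter and 1377 to 2482 with a time left out; of the receptor genes 3 passed, 5 as deposited and 1 with no filter. In Suz12-KO at 24 h 3 were at least 2-fold apart from 0 h, and 5 as deposited. Between the lines at 0, 24 and 72 h the counts of 0, 1 and 0 became 1, 2 and 1 with a pseudocount of 0.1, and at 24 h 0 as deposited. The count of 0 changes that differed by 1 log2 unit at 72 h became 1 as deposited, with upper-quartile scaling and with a pseudocount of 0.1. As deposited, Rara was 0.0223 between the lines and 0.3977 at 48 h, against -0.17 and -0.11. Nr2f1 between the lines was -0.0011 with upper-quartile scaling and -0.005 with a pseudocount of 1. With 1 time left out, the averages between the lines ran from -0.0644 to 0.3437 for Rarg, -0.1017 to 0.1079 for Rxrb, -0.2298 to 0.2943 for Nr2f1, -0.2625 to 0.0294 for Nr2f2 and -0.0779 to 0.1584 for Nr2f6. Depth limits Rxrg, with 1 to 16 reads in a column, and the 0 h levels of Rarb, Nr2f1 and Nr2f2, which rest on 0 to 3 reads.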
